A study of Mus musculus with 12 samples.

Results

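Epithelium and mesenchyme dissected from mouse tooth germs at embryonic stage E13.5 were compared gene by gene in all libraries labelled with that stage: 3 of epithelium and 3 of mesenchyme, out of 12 libraries in the series. The other 6 libraries came from the same tissues of E11.5 mandibles and were used only to ask whether a tissue difference changed with stage. All embryos were wild-type C57BL/6 mice with no treatment. Tooth germs, incisors and molars together, were dissected at E13.5, and their 2 tissues were parted with dispase. The labels describe the sequenced RNA as pooled and do not say from how many germs. The paper describes 3 biological replicate experiments per stage and does not say how its embryos were divided among the libraries. The labels do not say whether an epithelium and a mesenchyme library came from the same embryos, so the libraries were tested as unpaired. The p-values weigh the tissue difference against the spread between libraries within each tissue. Of 34347 genes in the table, 20584 had enough counts to be tested over the 6 libraries. One epithelium library, replicate 3 (library name E13_E), lay close to mesenchyme in its keratin and mesenchyme gene levels, and each comparison is therefore given both with and without it.

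A tooth is built by exchange between a sheet of oral epithelium and the neural crest mesenchyme beneath it. At the bud stage the thickened epithelium has grown into mesenchyme that condenses around it, and secreted WNT, SHH, FGF and BMP proteins pass between both layers. The epithelium later gives rise to the ameloblasts that make enamel, and the mesenchyme gives rise to odontoblasts, pulp and the bone that surrounds the tooth. Epithelial cells are held together by keratin filaments, desmosomes and tight junctions, whereas mesenchymal cells make vimentin and a matrix of fibrillar collagens.

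The summed counts of the 6 libraries ranged from 70134554 to 79349382, and 12827 to 13258 genes reached 1 FPKM (fragments scaled by transcript length and by the mapped fragments of the library) in each. Across 13578 genes, log-scaled counts of epithelium replicates 1 and 2 correlated at r = 0.983 and the 3 mesenchyme libraries at 0.973 to 0.987. E13_E correlated at 0.946 and 0.918 with the other epithelium libraries and at 0.964 to 0.972 with the mesenchyme libraries. These are correlations across genes, which are not independent replicates, and describe the libraries only. E13_E thus stood nearer to mesenchyme than to its own group, and every 6-library result below includes it.

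The marker genes followed the labels in direction, with E13_E between both groups. Krt14, a keratin of basal epithelial cells, measured 575, 920.4 and 162 FPKM in epithelium replicates 1, 2 and 3 and 30.0, 13.03 and 15.1 FPKM in mesenchyme replicates 1, 2 and 3. Cldn4, a tight junction claudin, measured 43.3, 57.8 and 21.1 FPKM in epithelium and 3.99, 2.97 and 3.01 FPKM in mesenchyme. Shh, the hedgehog ligand made by dental epithelium, measured 3.14, 3.65 and 1.34 FPKM against 0.212, 0.142 and 0.233 FPKM. For all 3 epithelial markers the lowest epithelium library was E13_E, and none overlapped with mesenchyme. Alpl, the alkaline phosphatase of mineralizing tissue, measured 2.85, 2.75 and 6.27 FPKM in epithelium and 29.1, 33.2 and 21.4 FPKM in mesenchyme. Ifitm5, a membrane protein of bone-forming cells, measured 0.547, 0.0801 and 1.33 FPKM in epithelium and 17.8, 23.6 and 18.4 FPKM in mesenchyme. Both were low in E13_E as well as in the other epithelium libraries. Vim, the intermediate filament of mesenchymal cells, differed in this respect: it measured 70.7, 56.4 and 155 FPKM in epithelium and 155, 177 and 193 FPKM in mesenchyme, so that E13_E lay just under the lowest mesenchyme library.

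**Figure D1:**
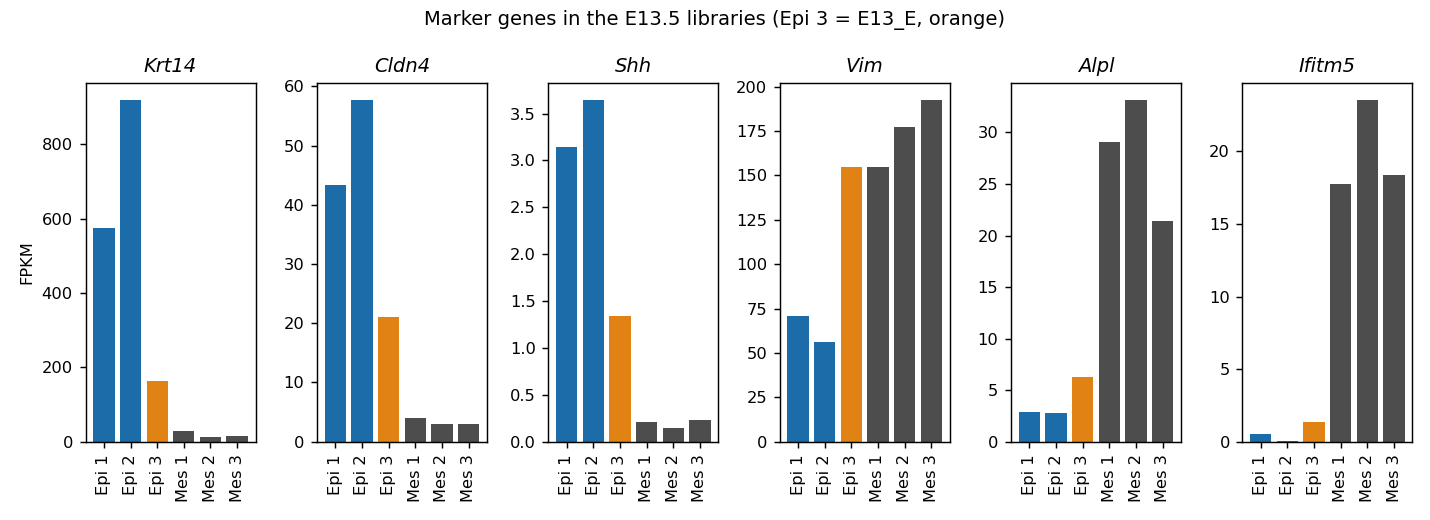
FPKM (linear axes from 0) of 6 marker genes in the 3 epithelium libraries (Epi) and the 3 mesenchyme libraries (Mes) at E13.5; each bar is 1 library and orange is E13_E. Krt14, Cldn4 and Shh in E13_E (162, 21.1 and 1.34 FPKM) lie between the groups, Vim (155 FPKM) lies at the mesenchyme level and Ifitm5 (1.33 FPKM) near the other epithelium libraries.

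A gene was called different at an adjusted p under 0.05 (edgeR quasi-likelihood test, Benjamini-Hochberg over all genes tested) with a log2 fold change of 1 or more in size, where positive values stand for higher in epithelium. Over the 6 libraries 327 genes were higher in epithelium (1.59% of 20584 tested) and 35 were higher in mesenchyme (0.17%). Their median log2 fold changes were 3.405 and -2.12, while the median over all genes tested was -0.01. The smallest adjusted p was 0.0347, and 2501 genes higher in epithelium and 2364 higher in mesenchyme had an unadjusted p under 0.05. Without E13_E, 1362 genes were higher in epithelium (6.34% of 21466 tested) and 2069 were higher in mesenchyme (9.64%), and the smallest adjusted p was 2.77e-05. All 327 and all 35 genes were again called in the same direction there. Both fits share all the other libraries, so this overlap is not independent support. E13_E was singled out by its own keratin and mesenchyme gene levels, so for such genes the comparison without it is a description. The 6-library calls rested on the full set of libraries: with epithelium replicate 1 left out, or with any of the mesenchyme libraries left out, edgeR called 0 genes in either direction, with 1575 to 2866 genes higher in epithelium and 1064 to 1913 higher in mesenchyme at an unadjusted p under 0.05. With epithelium replicate 2 left out 101 and 12 were called. By the same thresholds DESeq2 called 1069 and 688 genes over the 6 libraries, and limma on log2(FPKM + 0.5) called 0 genes, with 1826 and 2472 genes at an unadjusted p under 0.05. Every adjusted p over 6 libraries quoted below carries that limit. Each count of list members called below is to be read beside the shares over all genes tested. These were 1.59% in epithelium and 0.17% in mesenchyme over 6 libraries, and 6.34% and 9.64% without E13_E.

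Genes of the epithelial sheet were mostly higher in epithelium. Of 12 epithelial keratins, all tested, 8 were higher in epithelium over 6 libraries and 12 without E13_E, with a median log2 fold change of 3.85 and 4.28. Krt5, the partner of Krt14 in basal cell filaments, measured 887, 1390.2 and 267 FPKM in epithelium and 47.5, 27.0 and 27.0 FPKM in mesenchyme, a log2 fold change of 4.66 (SE 0.62, edgeR adjusted p = 0.0347). Krt14 differed by 4.84 (SE 0.69, adjusted p = 0.0347). Krt15 (433, 552 and 116 FPKM in epithelium; 18.1, 15.9 and 19.1 FPKM in mesenchyme) and Krt17 (121, 149 and 31.9 FPKM; 5.62, 3.22 and 4.29 FPKM) were the next most abundant. These are keratins of the basal layer of stratified epithelia. Krt8, Krt18 and Krt19, keratins of simple epithelia, were present at lower levels, and Krt8 measured 22.2, 24.9 and 9.68 FPKM in epithelium and 1.53, 4.18 and 4.40 FPKM in mesenchyme, with an adjusted p of 0.0551 over 6 libraries. The summed FPKM of the 12 keratins was 2131 and 3164 in epithelium replicates 1 and 2, 617 in E13_E and 71.6 to 109.6 in mesenchyme. Reads of Krt6a may in part be shared with near-identical keratin genes, so its values (28.8, 45.8 and 7.63 FPKM against 2.01, 0.411 and 0.884 FPKM) are uncertain.

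The 100 bases before the RefSeq start (build GRCm38.p6) of the basal keratin pair and of the osteoblast genes Ifitm5 and Ibsp are shown because these genes mark the opposite ends of the comparison; all 4 genes had 1 entry in the promoter table. They run 5′ to 3′ on the strand of the gene, and capitals mark 3 motifs searched on either strand: ATAAA and the related TATAA, both akin to the TATA box, and the CCAAT box. Krt5 lies on the minus strand at chr15:101712906-101713005, Krt14 on the minus strand at chr11:100206031-100206130, Ifitm5 on the minus strand at chr7:140950244-140950343 and Ibsp on the plus strand at chr5:104299187-104299286. The Krt14 window lies inside the gene span deposited with the counts (100203162 to 100207548), well past its 5′ end. The Ibsp window also lies inside its span (104299171 to 104311469), near the 5′ end. The Krt14 letters, and any lack of a match there, may therefore not describe the main promoter of that gene.
Krt5: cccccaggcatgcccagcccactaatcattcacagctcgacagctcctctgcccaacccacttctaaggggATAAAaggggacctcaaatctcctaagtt
Krt14: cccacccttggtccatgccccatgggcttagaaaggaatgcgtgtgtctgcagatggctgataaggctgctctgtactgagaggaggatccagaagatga
Ifitm5: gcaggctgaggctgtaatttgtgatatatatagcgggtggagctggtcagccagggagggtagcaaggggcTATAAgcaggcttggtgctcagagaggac
Ibsp: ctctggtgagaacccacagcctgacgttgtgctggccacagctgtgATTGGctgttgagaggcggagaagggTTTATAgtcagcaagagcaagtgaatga
ATAAA began 29 bases before the start in Krt5, TATAA began 29 bases before it in Ifitm5, and in Ibsp both lay on the opposite strand and overlapped, from base 28 to base 23 before the start. CCAAT lay on the opposite strand in Ibsp, from base 54 to base 50. Of 32851 promoter windows of the same length in the table, 17.5% held ATAAA, 10.2% held TATAA and 18.9% held CCAAT, so each match alone is common. TGTGGT, the core bound by RUNX factors (5.61% of windows), and GCCNNNGGC, bound by AP-2 factors (6.78%), were searched for on both strands as well and matched none of the 4 windows. A match is a description of these letters and not evidence of a bound site.

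Of 26 adhesion and junction genes, 24 were higher in epithelium over 6 libraries and 26 without E13_E, with medians of 3.74 and 4.09 on the log2 scale. Over all genes tested, 1.59% and 6.34% were called in that direction. Cdh1, the E-cadherin of adherens junctions, measured 47.5, 69.3 and 17.5 FPKM in epithelium and 3.78, 2.90 and 2.65 FPKM in mesenchyme (log2 fold change 3.86, SE 0.49, edgeR adjusted p = 0.0347). The desmosomal plaque protein Dsp (72.8, 109 and 22.7 FPKM against 5.28, 2.99 and 2.45 FPKM) and the desmosomal cadherin Dsg3 (5.36, 8.22 and 1.13 FPKM against 0.232, 0.0866 and 0.117 FPKM) differed by 4.26 and 5.08. Perp, a tetraspan protein of desmosomes, was the most abundant of the list at 191, 242 and 46.0 FPKM in epithelium and 9.39, 8.20 and 6.77 FPKM in mesenchyme. Gjb2 and Gjb6, connexins of gap junctions, differed by 3.95 and 4.21. Cdh3, the P-cadherin, had the smallest difference among the called members (1.77), since mesenchyme held 6.58 to 6.82 FPKM. The members not called over 6 libraries were Cldn1 and Tjp3, at 1.99 and 2.97 with adjusted p of 0.061 and 0.0856.

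The 10 genes with the largest differences among those with at least 5 FPKM in epithelium included genes of stratified surface epithelium. Serpinb10, an intracellular serpin, measured 6.38, 8.93 and 1.11 FPKM in epithelium and 0.121 to 0.144 FPKM in mesenchyme (log2 fold change 5.35, SE 0.76). Dsg1a measured 6.92, 9.84 and 1.21 FPKM against 0.0538 to 0.257 FPKM (5.54, SE 0.96, edgeR adjusted p = 0.0465), although its reads may be shared with the neighbouring Dsg1 copies. Fam83b, Cyp2w1, S100a14, a calcium-binding protein of epithelia, and Anxa8, an annexin, differed by 5.27, 4.74, 4.87 and 4.66. Without E13_E the cornification gene Krtdap reached 5.90 (SE 0.52, adjusted p = 0.000333). It measured 19.4 and 23.5 FPKM in epithelium replicates 1 and 2, only 1.36 FPKM in E13_E and 0.0918 to 0.521 FPKM in mesenchyme, and was not called over 6 libraries (adjusted p = 0.0623). Foxi3, a forkhead factor of ectodermal placodes, measured 4.25, 6.37 and 1.12 FPKM against 0.0555 to 0.177 FPKM. Its log2 fold change was 5.24 over 6 libraries and 5.67 without E13_E. It averaged 3.91 FPKM over the 3 epithelium libraries and was chosen among the genes called without E13_E.

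Of 20 transcription and splicing factors of epithelia, 12 were higher in epithelium over 6 libraries and 18 without E13_E (medians 3.25 and 3.67). Trp63, the master regulator of stratified epithelium, measured 32.0, 43.6 and 10.2 FPKM against 2.65, 1.25 and 1.11 FPKM (4.10). Esrp1 and Esrp2, which direct epithelial splicing, differed by 4.17 and 4.16, and Grhl3, a grainyhead factor of surface ectoderm, by 4.06. Sox2, a factor of the dental epithelial progenitors, measured 14.6, 20.3 and 4.97 FPKM in epithelium and 0.998 to 1.61 FPKM in mesenchyme. Pitx1, a homeobox factor of the jaw, went the other way in its values, at 42.4, 40.5 and 30.1 FPKM in epithelium and 50.2, 60.6 and 57.7 FPKM in mesenchyme, and was not called. Of the 12 surface proteases and their inhibitors, 10 were tested and 7 were higher over 6 libraries, among them St14, the membrane protease matriptase (8.01, 10.4 and 2.37 FPKM against 0.489 to 0.664 FPKM), and its inhibitor Spint1 (log2 fold change 3.80).

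Of 20 signals of the dental epithelium 11 were higher in epithelium over 6 libraries and 17 without E13_E, with medians of 2.60 and 2.97. Wnt6, a WNT ligand, measured 59.6, 80.5 and 20.4 FPKM in epithelium and 3.31 to 3.99 FPKM in mesenchyme (3.86, SE 0.48), and Wnt7b measured 38.7, 53.1 and 13.8 FPKM against 3.27, 2.02 and 2.02 FPKM (3.86). Wnt7a, Wnt3 and Wnt10b differed by 4.34, 4.15 and 3.73. Shh differed by 3.80 (SE 0.44, edgeR adjusted p = 0.0347), and Edar, the ectodysplasin receptor, by 3.43. Dkk4, a secreted WNT inhibitor of placodes, had the largest difference in this list at 5.03 (SE 0.85): it measured 6.51, 11.4 and 1.04 FPKM in epithelium and 0.158 to 0.242 FPKM in mesenchyme. Bmp7 differed by 1.33, whereas Bmp2 measured 3.33, 3.64 and 4.19 FPKM in epithelium and 5.76 to 6.76 FPKM in mesenchyme and was not called. Fst and Sostdc1, secreted BMP antagonists, were called only without E13_E, where they differed by 1.05 and 1.32. Of the FGF ligands, Fgf8 measured 0.402 to 0.530 FPKM in epithelium and 0.0636 to 0.182 FPKM in mesenchyme and Fgf9 1.59, 1.83 and 1.59 FPKM against 0.852 to 1.06 FPKM, and neither was called with or without E13_E. Fgf4 (0.397, 0.391 and 0.1002 FPKM against 0.0309 to 0.141 FPKM) and Fgf20 (0.571, 1.24 and 0.385 FPKM against 0 to 0.149 FPKM) were higher in epithelium without E13_E only, by 2.38 and 3.78 with edgeR adjusted p of 0.0322 and 0.0375.

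The basement membrane, which lies between the tissues, was divided by chain. Of 24 members 9 were higher in epithelium over 6 libraries, and without E13_E 14 were higher in epithelium and 5 in mesenchyme. Over all genes tested, 1.59% were called in epithelium over 6 libraries, and 6.34% in epithelium and 9.64% in mesenchyme without E13_E. Lama3 and Lamb3, laminin chains of epithelial basement membrane, were higher in epithelium by 3.72 and 3.77 over 6 libraries, as were the hemidesmosome parts Col17a1 (47.3, 68.6 and 15.4 FPKM against 2.30 to 3.93 FPKM) and Itgb4 (3.36). Lama5 and Itga3 differed by 2.89 and 3.12. Col4a5 and Col4a6 were higher in epithelium without E13_E, at 1.54 and 2.27, whereas Col4a1 and Col4a2, the widespread collagen IV chains, were higher in mesenchyme, at -1.06 and -1.23. Lama4, Lama1 and Nid2 were the other members higher in mesenchyme there. Lamc1, the chain shared by most laminins, measured 24.4, 28.1 and 27.2 FPKM in epithelium and 25.2, 28.7 and 25.7 FPKM in mesenchyme and was not called.

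General mesenchyme genes hardly passed over 6 libraries and nearly all passed without E13_E. Of 20 mesenchyme identity genes 1 was higher in mesenchyme over 6 libraries (Mef2c) and 17 without E13_E, with medians of -1.27 and -1.99. Twist1, a neural crest factor, measured 29.7, 18.2 and 97.0 FPKM in epithelium and 112, 134 and 137 FPKM in mesenchyme, with an adjusted p of 0.207 over 6 libraries and a log2 fold change of -2.41 without E13_E. Prrx1, another mesenchymal homeobox factor, measured 12.5, 5.84 and 50.8 FPKM against 69.2, 53.6 and 48.5 FPKM, so that E13_E overlapped with mesenchyme. The fibrillar collagens and matrix genes gave 0 calls over 6 libraries among 21 members in edgeR and 11 in DESeq2, 19 of them had an unadjusted p under 0.05 in edgeR and all 21 had non-overlapping libraries. Over all genes tested, 17.3% had the mesenchyme libraries above the epithelium libraries without overlap, and 0.17% were called in that direction. Without E13_E 19 of the 21 were higher in mesenchyme (median -2.09). Col1a1 measured 67.7, 45.8 and 220 FPKM in epithelium and 317, 464 and 402 FPKM in mesenchyme, and Fn1, fibronectin, measured 23.4, 17.6 and 81.1 FPKM against 90.2, 96.5 and 94.4 FPKM. In bulk samples, fewer cells of a type and less RNA per cell cannot be told apart.

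Of 22 genes of the odontogenic mesenchyme 1 was called over 6 libraries (Pax3) and 15 without E13_E (medians -1.22 and -2.02). Over all genes tested, 0.17% and 9.64% were called in mesenchyme. Msx1, the homeobox factor of the dental mesenchyme, measured 3.54, 4.38 and 16.7 FPKM in epithelium and 35.0, 39.6 and 27.3 FPKM in mesenchyme. Barx1, a marker of the molar region, measured 19.97, 13.2 and 54.4 FPKM against 58.1, 78.7 and 87.2 FPKM. Bmp4, the BMP ligand that mesenchyme expresses at this stage, measured 4.96, 4.18 and 10.4 FPKM against 14.0, 15.3 and 15.7 FPKM. All 3 were called without E13_E, at -3.10, -2.16 and -1.71. Pax9, by contrast, measured 3.64, 3.36 and 5.70 FPKM in epithelium and 4.58 to 5.18 FPKM in mesenchyme, Msx2 measured 3.98, 4.66 and 2.65 FPKM against 2.37 to 3.38 FPKM, and the hedgehog receptor Ptch1 measured 6.04, 7.12 and 5.67 FPKM against 4.31 to 8.16 FPKM. None of these 3 was called with or without E13_E.

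**Figure D2:**
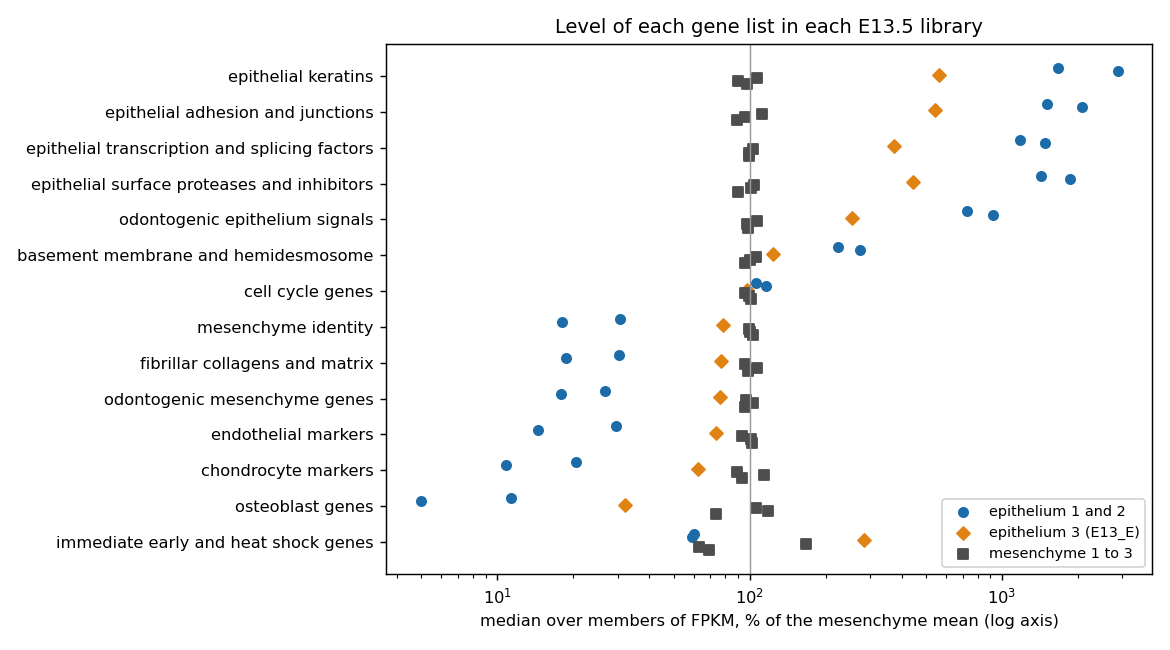
For each gene list (rows), the median over its expressed members of the FPKM in percent of the mesenchyme mean (log axis), 1 point per E13.5 library. Epithelium replicates 1 and 2 lie far above mesenchyme for keratins (1667% and 2870.2%) and far below it for mesenchyme identity genes (30.7% and 18.1%), and E13_E lies between, at 564% and 78.1%.

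Of the 35 genes called in mesenchyme over all 6 libraries, 2 were osteoblast genes of the list, and these had the largest folds among those averaging 5 FPKM or more in mesenchyme. By construction, called genes had to be low in E13_E too. Of 18 osteoblast genes 15 were tested, and the 2 called over 6 libraries were Ifitm5 (log2 fold change -4.88, SE 0.82, edgeR adjusted p = 0.043) and Alpl (-2.79, SE 0.38, adjusted p = 0.0347); 13 of 17 tested were called without E13_E, with medians over the list of -2.39 and -3.31. Ibsp, bone sialoprotein, was the most abundant of the list in mesenchyme. It measured 2.04, 0.212 and 10.4 FPKM in epithelium and 145, 201 and 95.9 FPKM in mesenchyme, a log2 fold change of -5.09 (SE 1.23, adjusted p = 0.0878) over 6 libraries and -7.05 (SE 0.94, adjusted p = 0.00178) without E13_E. Sp7, the osteoblast factor osterix, measured 0.818, 0.285 and 4.22 FPKM against 24.4, 26.9 and 14.3 FPKM. Smpd3, Phospho1, which releases phosphate for mineral, and the channel protein Panx3 differed by -5.52, -5.08 and -5.44 without E13_E. Ibsp, Sp7, Smpd3, Phospho1 and Panx3 were named for their large folds without E13_E. Their separation between the other libraries was therefore largely set by that choice. E13_E, which the choice did not use, also lay below all mesenchyme libraries for each of these genes. Of the 15 osteoblast genes tested, 14 had all epithelium libraries below all mesenchyme libraries, as had 17.3% of all genes tested. For each of the genes named for large folds, replicate 2 was the lowest epithelium library and replicate 3 the lowest mesenchyme library. Runx2, which acts upstream of Sp7 and is also made by dental mesenchyme, measured 2.21, 2.55 and 5.88 FPKM against 13.6, 9.85 and 7.09 FPKM (-2.10 without E13_E). Genes of late osteoblasts were at or near 0: Bglap did not exceed 0.219 FPKM and Mepe 0.173 FPKM in any of the 6 libraries.

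Other genes among the 35 have known roles in bone, cartilage and vessels or in signalling. Sgms2, a sphingomyelin synthase, measured 0.766, 0.826 and 1.15 FPKM in epithelium and 6.89, 7.72 and 4.15 FPKM in mesenchyme (-2.75, SE 0.30, edgeR adjusted p = 0.0347). Clec11a, a growth factor for osteogenic cells, measured 0.406, 0.487 and 0.795 FPKM against 3.91, 6.41 and 3.74 FPKM (-3.03). Mmp9, the gelatinase of osteoclasts, measured 1.32, 1.35 and 3.02 FPKM against 9.94, 12.4 and 7.91 FPKM (-2.38). Mef2c and Pax3, factors of neural crest and muscle among other tissues, differed by -2.18 and -2.30, and Hey2 and Heg1, genes known from heart and vessel development, by -1.83 and -1.31. Tcf7, a nuclear effector of WNT signalling, measured 4.45, 3.37 and 4.70 FPKM against 11.4, 12.4 and 9.43 FPKM (-1.39). Heg1 was the most even of them, at 3.03, 2.71 and 2.79 FPKM in epithelium and 6.33, 7.67 and 7.52 FPKM in mesenchyme. Slc36a2 and Ocstamp were listed at 0 in all epithelium libraries and did not exceed 0.41 FPKM in mesenchyme, so no fold is given for them.

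**Figure D3:**
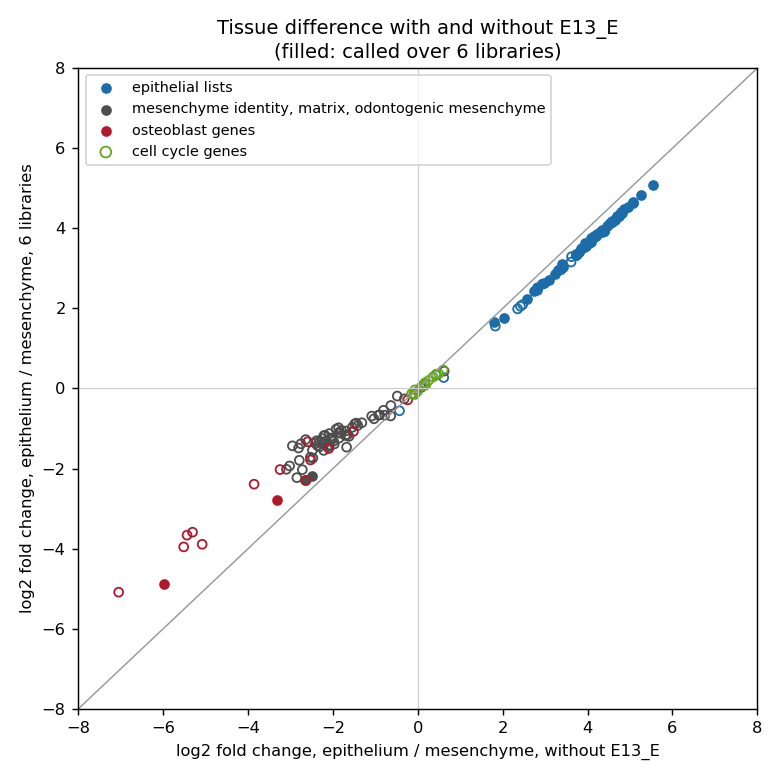
Log2 fold change (epithelium over mesenchyme) without E13_E (horizontal axis) against that over 6 libraries (vertical axis), 1 point per tested gene. Shown are the keratin, junction, epithelial factor, surface protease, mesenchyme identity, matrix, odontogenic mesenchyme, osteoblast and cell cycle lists. Points are filled where the gene was called over 6 libraries. The diagonal marks equal values. Both axes share libraries. The keratin median was 4.28 without E13_E and 3.85 over 6 libraries, and the mesenchyme identity median was -1.99 and -1.27. Group means were fitted on the count scale before the log was taken. There, 1 low library among high ones moves the log of the mean less than 1 high library among low ones. These shifts therefore do not rank how far E13_E lay from its group.

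How far E13_E lay from its own group depended on the gene group. Its position was set as 0% at the mean of the other epithelium libraries and 100% at the mesenchyme mean on the FPKM scale. The calls without E13_E did not use its values, but the library was set apart by its own keratin and mesenchyme gene levels. Positions of such genes in part restate that choice. Among the genes called without E13_E, the median position was 80.4% for the 1362 genes higher in epithelium and 65.2% for the 2069 genes higher in mesenchyme. Of the former 1301 lay nearer mesenchyme (95.5%), and of the latter 1465 (70.8%). Within the lists, the called members had median positions of 79.0% for keratins, 76.7% for junctions, 74.8% for epithelial signals, 70.4% for mesenchyme identity, 62.4% for fibrillar collagens and matrix, 63.9% for endothelial genes, 56.9% for odontogenic mesenchyme genes and 53.8% for chondrocyte genes. The osteoblast genes stood lowest at 16.6%, with members from 5.21% (Ifitm5) to 80.2% (Spp1). E13_E held 78.1% of the mesenchyme level of a typical mesenchyme identity gene but 32.2% of that of a typical osteoblast gene. The odontogenic mesenchyme genes ranged widely. Dlx1, Dlx5 and Dlx6, homeobox genes of the jaw arch, lay at 91.5%, 82.6% and 79.7%, while Hand2, a factor of the distal jaw arch, lay at 24.7%, Lhx8 at 31.4% and Pax3 at 15.3%. These positions are descriptions of 1 library and carry no test.

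**Figure D4:**
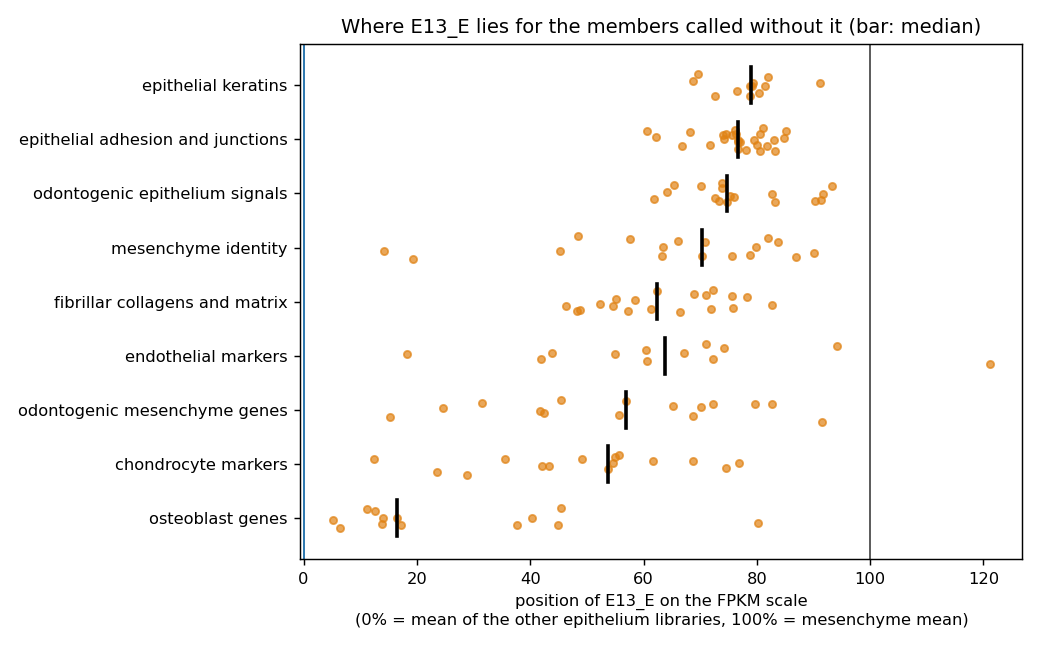
Position of E13_E between the mean of the other epithelium libraries (0%) and the mesenchyme mean (100%) on the FPKM scale, 1 point per list member called without E13_E; bars are medians and the vertical scatter has no meaning. The median runs from 79.0% for keratins to 16.6% for osteoblast genes.

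Markers of other cells that dissected tissue can hold were measured as well. Of 16 chondrocyte markers 1 was called over 6 libraries (Comp) and 15 without E13_E (median -2.69). Col2a1, the main cartilage collagen, measured 26.9, 11.8 and 70.3 FPKM in epithelium and 99.6, 133 and 105 FPKM in mesenchyme, and Acan, the cartilage proteoglycan, measured 0.896, 0.847 and 6.01 FPKM against 13.4, 14.6 and 10.3 FPKM. The 12 endothelial markers gave 0 calls over 6 libraries in edgeR, with 8 at an unadjusted p under 0.05 and 5 called by DESeq2, and 12 calls without E13_E (median -2.16), and Cdh5, the cadherin of vessels, measured 7.29, 3.69 and 21.2 FPKM against 27.3, 30.0 and 29.6 FPKM. The summed FPKM of the endothelial list was 39.0 and 19.9 in epithelium replicates 1 and 2, 93.4 in E13_E and 116 to 139 in mesenchyme. No endothelial marker was at 0 in any epithelium library, and the part of these cells in the differences of other genes was not tested. Skeletal muscle, macrophage and erythroid lists of 12 genes each gave 0 calls over 6 libraries in edgeR, with 6, 5 and 2 members at an unadjusted p under 0.05 and 2, 1 and 0 called by DESeq2, and 8, 3 and 4 calls in mesenchyme without E13_E. Of 12 neuron markers 1 (Isl1) was higher in epithelium and 2 were higher in mesenchyme without E13_E, and of 8 Schwann and glial markers 1 (Erbb3) and 3. Over all genes tested, 0.17% were called in mesenchyme over 6 libraries, and 2364 of 20584 had an unadjusted p under 0.05 in that direction. Without E13_E, 6.34% of all genes were called in epithelium and 9.64% in mesenchyme. The neuron counts lie near those shares. Hemoglobin genes were abundant in each library, and their summed erythroid list ranged from 1638 to 3122 FPKM in epithelium and from 2849 to 5394 FPKM in mesenchyme.

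None of 16 cell cycle genes was called with or without E13_E by edgeR, DESeq2 or limma, and in edgeR 2 had an unadjusted p under 0.05 over 6 libraries and 6 without E13_E. Their median log2 fold change was 0.10 and 0.16. Over all genes tested, the shares called by edgeR in epithelium and mesenchyme were 1.59% and 0.17% over 6 libraries and 6.34% and 9.64% without E13_E. Pcna, the replication clamp, measured 113, 116 and 95.3 FPKM in epithelium and 92.6, 87.2 and 89.5 FPKM in mesenchyme, and Mki67, a proliferation antigen, measured 38.5, 39.6 and 27.5 FPKM against 35.8, 21.2 and 20.4 FPKM.

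Immediate early genes, which cells switch on rapidly after many kinds of stimulus, were high in 2 libraries, 1 of each tissue. Fos measured 17.7, 13.49 and 227 FPKM in epithelium and 110.1, 19.7 and 19.2 FPKM in mesenchyme. Egr1 measured 14.4, 14.1 and 167 FPKM against 77.4, 12.9 and 15.5 FPKM, and Fosb 3.74, 1.48 and 73.3 FPKM against 33.3, 2.9999 and 3.46 FPKM. The summed list, with heat shock genes included, was 948 FPKM in E13_E and 509 FPKM in mesenchyme replicate 1 (library name E13_M) against 155 to 164 FPKM in the other 4 libraries. These 2 libraries are the ones at this stage whose names carry no number, and what the missing number stands for is not given in the sources used here. In the paper's sequencing summary both had a lower share of high-quality bases and a higher share of valid reads than the numbered E13.5 libraries. The unnumbered E11.5 libraries differed from the numbered ones in the same way. Whether this bears on gene levels was not tested. Nr4a1, an orphan nuclear receptor of this group, measured 3.02, 2.14 and 77.4 FPKM in epithelium and 47.8, 7.75 and 7.53 FPKM in mesenchyme, so that its direction was set by E13_E: the log2 fold change was 0.42 over 6 libraries and -3.03 without it. The values of Fos, Fosb and Egr1 turned as well, from 0.82, 1.01 and 0.92 over 6 libraries to -1.68, -2.36 and -1.31 without E13_E, where of these 4 genes Nr4a1 alone was called. The median of the list was 0.61 over 6 libraries and -0.86 without E13_E. The heat shock genes of the list did not share the pattern. Hspa1b, the only called member of the list over 6 libraries, measured 6.15, 10.03 and 6.74 FPKM in epithelium and 3.52, 2.85 and 2.64 FPKM in mesenchyme (1.36, edgeR adjusted p = 0.0469), and its reads may be shared with Hspa1a. The part of this response in other tissue differences was not tested.

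**Figure D5:**
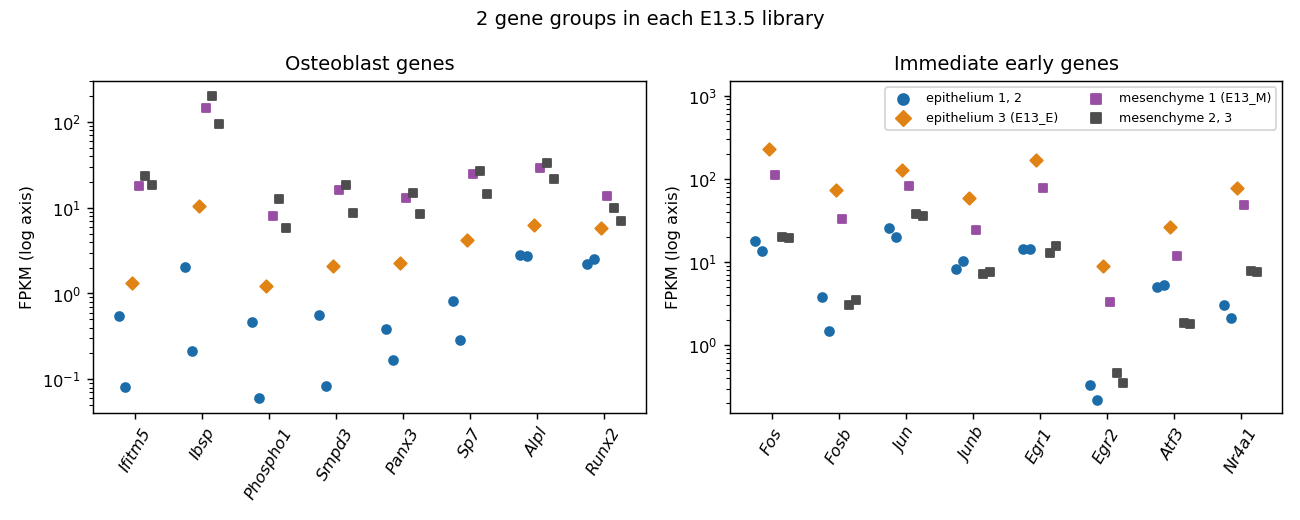
FPKM (log axis) of 8 osteoblast genes and 8 immediate early genes in each E13.5 library. Osteoblast genes separate the tissues, with Ibsp at 10.4 FPKM in E13_E and 95.9 to 201 FPKM in mesenchyme, whereas immediate early genes are high in E13_E and in mesenchyme replicate 1 (Fos at 227 and 110.1 FPKM).

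Proteoglycans, the sugar-chain-bearing proteins of the cell surface and matrix that bind WNT, FGF and hedgehog ligands, were tested as core proteins and as the enzymes that build their chains. Over all genes tested, edgeR called 1.59% in epithelium and 0.17% in mesenchyme over 6 libraries, and 6.34% and 9.64% without E13_E. At an unadjusted p under 0.05 over 6 libraries stood 2501 and 2364 of 20584 genes. At these shares a list of 33 genes would hold few or no calls over 6 libraries. None of 33 core proteins was called over 6 libraries in edgeR, with 3 at an unadjusted p under 0.05 in epithelium and 10 in mesenchyme. DESeq2 called 1 in epithelium and 2 in mesenchyme, and in edgeR without E13_E 1 was higher in epithelium (Fmod) and 16 in mesenchyme. Gpc3, a glypican, was the most abundant and measured 138, 120 and 263 FPKM in epithelium and 308, 312 and 315 FPKM in mesenchyme (-1.27 without E13_E). Sdc1, the syndecan known from dental mesenchyme, measured 55.9, 64.0 and 53.4 FPKM in epithelium and 56.4, 64.3 and 58.8 FPKM in mesenchyme and was not called. The linkage and elongation enzymes gave 0 calls among 20 over 6 libraries in edgeR and in DESeq2, with 7 at an unadjusted p under 0.05 in edgeR, and 4 edgeR calls in mesenchyme without E13_E. Of 20 heparan sulfate modifying genes 1 was called over 6 libraries: Hpse2, a heparanase relative, measured 0.649, 0.514 and 1.28 FPKM in epithelium and 4.43, 4.07 and 3.57 FPKM in mesenchyme (-2.28, SE 0.37, edgeR adjusted p = 0.0419). Hs3st2, a heparan sulfate sulfotransferase, was the 1 gene of that list higher in epithelium without E13_E, at 0.601, 0.804 and 0.126 FPKM against 0.0351 to 0.166 FPKM, and 7 were higher in mesenchyme. Of 11 chondroitin and dermatan sulfate modifying genes, 10 tested, Chst13, a chondroitin sulfotransferase, was called over 6 libraries and was almost absent from epithelium at 0, 0.0178 and 0.0622 FPKM against 1.27, 1.93 and 1.14 FPKM in mesenchyme.

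Whether a tissue difference at E13.5 differed from that at E11.5 was asked with an interaction test over 12 libraries. E11.5 libraries came from mandibles and E13.5 libraries from tooth germs, so stage and dissected piece cannot be told apart. The epithelium-over-mesenchyme ratio was higher at E13.5 for 3 genes (0.0136% of 22110 tested) and lower for 42 (0.19%). Without E13_E it was higher for 348 and lower for 1596, and all 3 and all 42 were among these. That overlap is not independent, since both fits share all the other libraries. Aqp3 was among the 3, as was Gm45837, a gene model whose E13.5 values overlapped widely between tissues (2.19, 1.0008 and 3.15 FPKM in epithelium; 1.71, 3.97 and 0.520 FPKM in mesenchyme); it fell outside the rule for named genes and is given after its values were seen. Aqp3, a water and glycerol channel of epithelia, had an interaction of 4.71 on the log2 scale (SE 0.80, edgeR adjusted p = 0.0433): it measured 12.3, 18.7 and 2.66 FPKM in E13.5 epithelium and 0.591 to 0.887 FPKM in E13.5 mesenchyme, against 0.531 ± 0.197 and 0.931 ± 0.329 FPKM (SD, n = 3) in E11.5 epithelium and mesenchyme. Sgms2, named above, was low in both E11.5 tissues, at 0.317 ± 0.154 and 0.213 ± 0.00944 FPKM, and its interaction was -3.36 (adjusted p = 0.0156). For Dok5, Mgp and Aldh1a3 the order of the group means turned: at E11.5 the epithelium mean was the higher, as with Dok5 at 4.64 ± 0.18 against 1.02 ± 0.10 FPKM (SD, n = 3), and at E13.5 the mesenchyme mean was the higher, at 2.73, 3.48 and 4.17 FPKM against 5.06, 6.25 and 7.21 FPKM for Dok5, and none of the 3 was called at E13.5 with or without E13_E.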

How the data were processed

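RNA from dental epithelium and mesenchyme was sequenced as poly(A)-selected, paired-end libraries. Per the submitters' processing notes, reads were aligned to mm10 with HISAT2 2.0.4 and assembled and quantified with StringTie 1.3.4d, and edgeR was named there. The deposited table holds whole-number expected counts and FPKM values made by the authors. The counts summed to 70134554 to 79349382 per library, which cannot be equated with read pairs, so they were treated as estimated counts; counting error is therefore not given. All columns of the 12 libraries were mapped to samples by name.

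Libraries were grouped by GEO's labels. Counts were tested with edgeR 4.0.16 in R 4.3.3 (filterByExpr, TMM, quasi-likelihood F test, no covariate) over the 6 E13.5 libraries and again without E13_E, and for the interaction of tissue and stage over 12 libraries. Calls were made at an adjusted p below 0.05 with a log2 fold change of 1 or more in size. The study's methods name another count model, DESeq2, run here (1.42.0) as an alternative beside limma 3.58.1 on log2(FPKM + 0.5), other scalings and filters, counts divided by 3, blocks, and each library left out. On simulated data with the common dispersion of the 6 libraries, edgeR recovered 86% of 4-fold and 100% of 16-fold changes among 20235 genes, with 6 false calls. The simulation gave every gene the same dispersion and held no library lying apart as E13_E does. Its shares are therefore a check of the code and not the power in the real data.

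Genes named were the markers; in each direction, the 10 called over 6 libraries with the largest fold among those averaging 5 FPKM or more in the tissue with more and without overlap, then 8 more called without E13_E; up to 7 members of each of 23 lists; and the largest interactions. Further members are named as examples after their values were seen. Members, lists and rule were chosen with earlier results of these data known. Promoter sequences came from RefSeq (GRCm38.p6). Results for a few genes are not reported here.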

Additional observations from a re-analysis of the deposited data

Results flagged for a closer look

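The tissue difference (log2 epithelium over mesenchyme) differed between E13.5 and E11.5 by the edgeR interaction test over 12 libraries for the following genes, chosen by size and level. Aqp3 stood at 4.71 and was higher in all 3 E13.5 epithelium libraries than in any E13.5 mesenchyme library. Nell2, a secreted neural protein, stood at -2.09: it measured 6.18 to 7.83 FPKM in all 6 E13.5 libraries, against 7.13 ± 0.14 FPKM in E11.5 epithelium and 1.57 ± 0.06 FPKM in E11.5 mesenchyme. Fabp7, a fatty acid carrier of glial precursors, stood at -4.04, with 24.7 ± 11.04 FPKM in E11.5 epithelium and 1.94 to 4.83 FPKM in E13.5 epithelium. Sgms2 stood at -3.36, Mgp, an inhibitor of calcification, at -3.08, Dok5 at -3.02 and Aldh1a3, which makes retinoic acid, at -2.5. All 7 were also called without E13_E, in a fit that shares all the other libraries. The earlier stage is represented by mandibles and the later by tooth germs, so stage and dissected piece cannot be told apart.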

How the results depend on the processing

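Over 6 libraries the number of genes called depended on nearly every setting. The 327 genes higher in epithelium and 35 higher in mesenchyme became 0 and 0 with any gene counted in 2 libraries kept, with a replicate block, with a block for library name and with limma at either pseudocount or without its level filter, where 1824 to 2746 and 2314 to 3186 genes had an unadjusted p under 0.05; 1069 and 688 with DESeq2; and 782 and 377 with the spread shared over 12 libraries. The mesenchyme count alone moved to 62 with counts divided by 3 and to 84 with unnumbered library names as a covariate. Leaving out 1 library gave 0 to 1362 genes in epithelium and 0 to 2069 in mesenchyme. Without E13_E, 1362 and 2069 genes became 758 and 1219 with limma and 847 and 1149 without its level filter, the epithelium count became 885 with a pseudocount of 0.1, and leaving out 1 library gave 878 to 1490 and 1251 to 2240. The interaction counts of 3 and 42 became 348 and 1596 without E13_E, 127 and 635 with DESeq2, and 1 and 18 with a replicate block. Of the genes named by rule, 1 reversed: Nr4a1, at 0.42 over 6 libraries, was -3.03 without E13.5 dental epithelium replicate 3, which was high for this gene, and leaving out any 1 library gave -3.03 to 1.92; Fos, Fosb and Egr1, named beyond the rule, also turned without that library, to -1.68, -2.36 and -1.31, and none of these 3 was called. For the other changes the cause was not tested. Whether replicate or library-name numbers pair the samples is not known, so the blocks are a check only. Deviations from the group means correlated between tissues at no more than 0.098, the value for epithelium replicate 1 and mesenchyme replicate 3. Because each group held 3 libraries and E13_E lay apart, these correlations cannot decide whether libraries shared embryos. With 3 libraries a group, 1 of them apart, and with the depth behind each deposited count unknown, a gene that was not called may still differ.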
